A study of Rattus norvegicus with 6 samples.

Results

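The genes described here are the ligands, receptors and neuropilins of the vascular endothelial growth factor (VEGF) family, measured in rat granulation tissue 1 day and 3 days after an implant of uncoated cellulose was placed under the skin. The set is defined by gene symbol, as the members of this family, and was picked with earlier results of these data known. It names 9 genes, the ligands Vegfa, Vegfb, Vegfc and Pgf, the receptors Kdr, Flt1 and Flt4, and the neuropilins Nrp1 and Nrp2. Of the 9 genes 7 were among the 13336 genes with a probe, 1 probe each, and 6 were bright enough to be tested. The probe of Flt1 was too dim. Kdr and Flt4 had no probe of that symbol in the annotation used, so they were not analysed here.

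The study took tissue from 6 Sprague-Dawley rats, all 10 weeks old and all carrying the same uncoated implant. Rats 1, 2 and 3 gave day 1 tissue (24 h) and rats 4, 6 and 7 gave day 3 tissue (72 h), with 1 Illumina BeadChip array per rat. The comparison of the days follows gene expression while the implant is first filled by tissue. No implant-free skin or other tissue was among the samples, so every value below is a level at 1 of the 2 days or a difference between them. RNA came from all cells of the implant, and fewer cells of a type and less RNA per cell cannot be told apart.

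VEGF-A is the main driver of vessel sprouting and vessel leakiness in healing wounds. It acts on endothelial cells through the kinase receptor encoded by Kdr, while the receptor encoded by Flt1 also binds VEGF-A, VEGF-B and placental growth factor and can act as a trap for them. VEGF-C and VEGF-D act through Flt4, chiefly on lymphatic vessels, and through Kdr once they have been cut by proteases. Neuropilins are co-receptors that hold VEGFs and class 3 semaphorins beside the signalling receptors. Transcription of Vegfa is raised by HIF-1, the factor that builds up when oxygen is low.

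The promoter windows of the 3 genes that passed the test are shown because these genes moved in opposite directions. Each is the 250 bases before the annotated gene start, from RefSeq on the GRCr8 assembly, printed 5′ to 3′ on the strand of the gene. The window of Vegfa is chr9:22452604-22452853 (+), that of Vegfc chr16:44560888-44561137 (-) and that of Nrp1 chr19:73256307-73256556 (+). Capitals mark GC boxes (GGGCGG on either strand) in Vegfa and Vegfc and the hypoxia response core GCGTG, on the opposite strand, in Nrp1.
Vegfa: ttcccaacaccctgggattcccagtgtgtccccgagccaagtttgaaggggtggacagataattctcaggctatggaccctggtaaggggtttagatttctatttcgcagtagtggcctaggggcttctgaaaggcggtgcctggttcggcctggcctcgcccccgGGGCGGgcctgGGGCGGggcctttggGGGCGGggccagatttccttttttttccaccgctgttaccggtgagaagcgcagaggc
Vegfc: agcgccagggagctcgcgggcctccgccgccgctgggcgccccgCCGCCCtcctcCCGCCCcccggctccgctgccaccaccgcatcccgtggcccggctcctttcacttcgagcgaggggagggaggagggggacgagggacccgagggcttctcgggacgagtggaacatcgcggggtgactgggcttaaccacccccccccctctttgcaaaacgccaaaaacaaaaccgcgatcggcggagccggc
Nrp1: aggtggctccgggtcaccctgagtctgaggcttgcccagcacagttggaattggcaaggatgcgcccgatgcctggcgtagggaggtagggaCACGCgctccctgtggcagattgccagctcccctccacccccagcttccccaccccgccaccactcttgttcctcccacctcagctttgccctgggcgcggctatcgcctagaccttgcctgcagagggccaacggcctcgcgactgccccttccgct
Vegfa held 3 GC boxes on the gene strand, with first bases 84, 73 and 58 bases before the start. Vegfc held 2 on the opposite strand, at 206 and 195 bases. Nrp1 held no GC box and 1 GCGTG on the opposite strand, at 158 bases. The hypoxia cores ACGTG and GCGTG were in neither the Vegfa nor the Vegfc window. The AP-1 motif TGANTCA was in none of the 3. Only these 250 bases were searched, so sites farther upstream would not be seen. Over 33469 rat promoter windows of the same length, searched on both strands, 30.5% held GGGCGG, 25.9% GCGTG, 16.6% ACGTG and 6.34% TGANTCA. A match of letters is a description and shows no binding.

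Values below are log2 intensities, in which 1 unit is a doubling of brightness. Probes bind with different strengths, so the level of 1 gene is not set against that of another. A probe was kept where it lay above the background limit of 6.42 on at least 3 of the 6 arrays, and a gene is said to rise or fall where its adjusted p in limma's two-sided test lay under 0.05. Of the 6 tested VEGF genes 2 rose from day 1 to day 3, Vegfc and Nrp1, 1 fell, Vegfa, and 3 did not pass. Among all 8698 kept genes 13.5% rose and 10.7% fell. Counts at an unadjusted p under 0.05, given for gene lists below, have no such share beside them and are not read as results. In 4 of the 6 VEGF genes the 3 rats of 1 day lay apart from the 3 of the other, against 41.6% of all kept genes. The median difference of all kept genes was -0.0082.

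**Figure D1:**
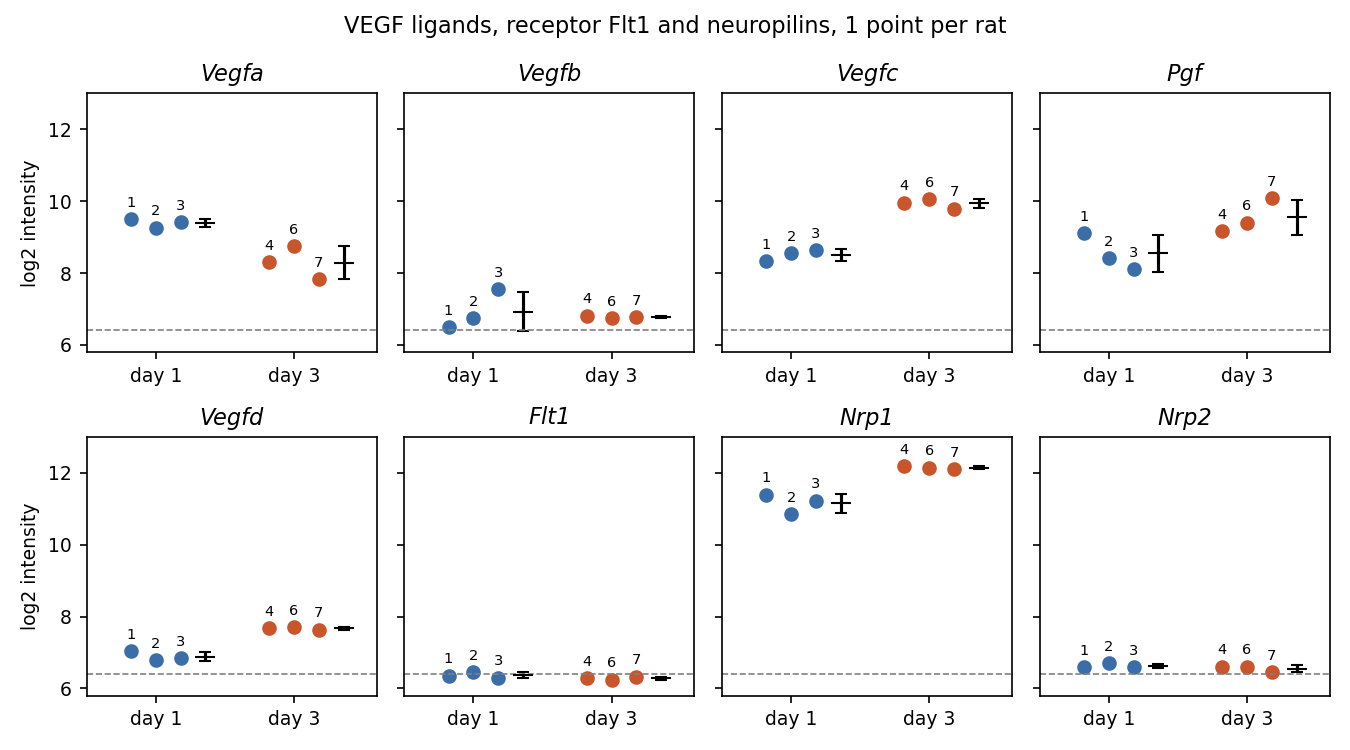
Log2 intensity (vertical axis) of the 7 VEGF genes with a probe and of Vegfd on each of the 6 arrays, with the rat number above each point. Bars give the mean and SD of the 3 rats of a day, and the dashed line is the background limit of 6.42. Vegfa is lower at day 3, and Vegfc, Vegfd and Nrp1 are higher. Flt1, Nrp2 and, in all rats but rat 3, Vegfb lie at or near the limit.

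Vegfa, the ligand of sprouting and leaky vessels, was the 1 member that fell. Its levels were 9.51, 9.26 and 9.42 in day 1 rats 1, 2 and 3, and 8.30, 8.75 and 7.83 in day 3 rats 4, 6 and 7. Every day 3 rat lay below every day 1 rat, and the day 3 rats were spread more widely than the day 1 rats. The means were 9.40 ± 0.12 and 8.29 ± 0.46 (SD, n = 3 each). The difference was -1.10 (SE 0.23, 95% interval -1.65 to -0.56), a 2.15-fold lower brightness at day 3, with adjusted p = 0.0179. This call was lost without rat 1 (adjusted p = 0.0545), without rat 2 (0.0534) or without rat 4 (0.0502), where the difference still ran from -1.17 to -1.05. It was also lost in a test per probe without moderation (adjusted p = 0.0869). The difference lay at the 3.8th percentile of all kept genes.

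Vegfc, the ligand of lymphatic growth, rose most among the members. It measured 8.33, 8.56 and 8.64 in rats 1, 2 and 3 at day 1 and 9.97, 10.06 and 9.80 in rats 4, 6 and 7 at day 3. Both days were tight and far apart from each other. The means were 8.51 ± 0.16 and 9.94 ± 0.13, and the difference of 1.43 (SE 0.12, 95% interval 1.14 to 1.73) is a 2.70-fold rise with adjusted p = 0.00137. Leaving out any 1 rat kept the call, with a highest adjusted p of 0.0108 without rat 6. The difference was at the 97.5th percentile of all kept genes.

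Vegfa and Vegfc thus moved in opposite directions on the same arrays. The log2 value of Vegfc minus that of Vegfa, whose absolute size depends on the probes, was -1.18, -0.70 and -0.78 in rats 1, 2 and 3 and 1.66, 1.31 and 1.97 in rats 4, 6 and 7. Within the array the balance therefore shifted toward Vegfc by 2.54 on the log2 scale. This quantity follows from both changes above and was not tested on its own.

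Vegfd, a close relative of Vegfc that signals through the same receptor, was not among the 9 genes and belongs to the pathway lists. Its levels were 7.03, 6.78 and 6.84 at day 1 and 7.68, 7.70 and 7.64 at day 3, with no overlap. It rose by 0.79 (SE 0.10, 1.73-fold, adjusted p = 0.00404) and passed in each refit without 1 rat (highest adjusted p = 0.0245, without rat 6). Both ligands of the lymphatic branch were thus higher at day 3.

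Pgf, placental growth factor, a ligand of Flt1, measured 9.11, 8.42 and 8.11 at day 1 and 9.16, 9.41 and 10.09 at day 3. The days were apart only narrowly, since rat 1 at 9.11 was close to rat 4 at 9.16. Means of 8.55 ± 0.52 and 9.55 ± 0.48 gave a difference of 1.00 (SE 0.33, 95% interval 0.23 to 1.78). Its adjusted p of 0.0716 (0.0186 unadjusted) did not pass. Without rat 1 the difference was 1.29 with adjusted p = 0.0382, the 1 of 15 alternative settings in which it passed.

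Vegfb, the second Flt1 ligand, known for a role in fat and muscle, measured 6.50, 6.74 and 7.55 in rats 1, 2 and 3 and 6.81, 6.74 and 6.77 in rats 4, 6 and 7. The days overlapped, and rat 3 stood apart from the other 5 rats. Those lay between 6.50 and 6.81, near the background limit of 6.42. The difference was -0.16 (95% interval -0.78 to 0.47, adjusted p = 0.746). Without rat 3 it was 0.15 (adjusted p = 0.366), so the sign rested on that rat. Rat 3 also had the brightest adipocyte markers: the summed intensity of 10 kept markers was 176782 in rat 3, against 50012 and 71748 in rats 1 and 2 and 44837 to 67232 at day 3. Their part in the Vegfb value was not tested.

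Flt1, the only kinase receptor of the family with a probe here, lay at background. Its levels were 6.35, 6.45 and 6.30 at day 1 and 6.28, 6.24 and 6.32 at day 3. Only rat 2 was above the limit of 6.42, so 1 of 3 day 1 arrays and 0 of 3 day 3 arrays had a signal above it. The probe was not tested, and these arrays set no more than an upper bound on its signal.

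Nrp1, the co-receptor for VEGF-A and for class 3 semaphorins, measured 11.39, 10.86 and 11.22 at day 1 and 12.19, 12.15 and 12.11 at day 3. All day 3 rats lay above all day 1 rats and within a narrow band. The means of 11.15 ± 0.27 and 12.15 ± 0.04 differed by 1.00 (SE 0.15, 95% interval 0.64 to 1.35), a 1.99-fold rise with adjusted p = 0.00611. The call held in each of 15 alternative settings, with a highest adjusted p of 0.0464 in the test per probe without moderation. Among the refits without 1 rat the highest adjusted p was 0.0305 (rat 6). The mean over probes is not counted among the 15 settings and could not differ, because the gene has 1 probe.

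Nrp2, the neuropilin that binds VEGF-C as well as semaphorins, was near background on every array, at 6.59, 6.70 and 6.58 at day 1 and 6.60, 6.61 and 6.45 at day 3. The days overlapped and differed by -0.07 (95% interval -0.30 to 0.16, adjusted p = 0.678). This interval is on a scale with an added offset of 50 intensity units, which shrinks the changes of dim probes such as those of Nrp2, Vegfb and Vegfd.

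**Figure D2:**
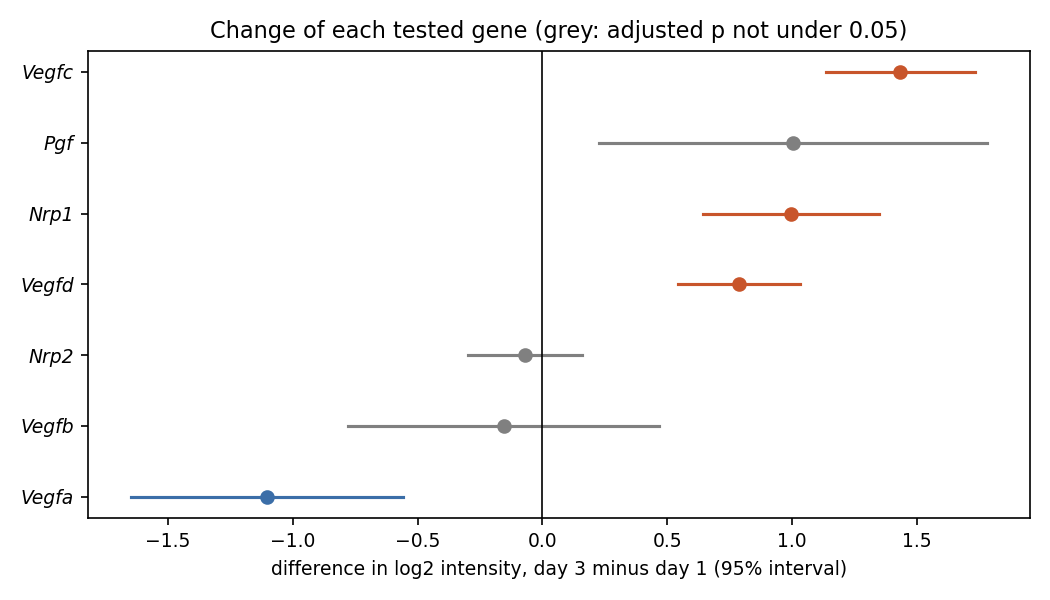
Difference in log2 intensity between day 3 and day 1 (horizontal axis) for the 6 tested VEGF genes and Vegfd, each from 3 rats a day, with its 95% interval as a line. Vegfc at 1.43, Nrp1 at 1.00 and Vegfd at 0.79 lie to the right of 0, Vegfa at -1.10 lies to the left, and the grey genes did not pass the test.

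Neuropilin levels were next set against the endothelial markers of the same arrays. Of 16 kept endothelial markers (of 18 with a probe and 23 listed) 9 rose and 0 fell in limma's test (9 and 0 at an unadjusted p under 0.05), with a median of 0.76. Cd34, counted among the 9, was above the limit on 0 day 1 arrays and was kept through day 3 alone. Without it 8 of 15 rose, with a median of 0.78. With each rat left out in turn, the number that rose was 4 (rat 2 or 6), 5 (rat 7), 8 (rat 1 or 4) or 11 (rat 3). Aplnr, the apelin receptor of growing vessels, rose by 1.95 (SE 0.21, adjusted p = 0.00253), and Vwf, the clotting factor carrier of endothelium, by 1.61 (SE 0.33, adjusted p = 0.0178, 0.0682 without rat 6). Emcn, a sialomucin of small vessels, rose by 1.02 (SE 0.11, adjusted p = 0.00271). The other 7 kept markers, those that did not pass, differed by -0.14 to 0.94. Summed intensities of the list were 16010 to 19940 at day 1 and 31200 to 43520 at day 3. The probes of the defining markers Cdh5 and Robo4 were too dim to be kept, and Pecam1 had no probe of that symbol in the annotation used.

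Nrp1 minus the mean of those 16 markers was 2.26, 1.84 and 1.92 in rats 1, 2 and 3 and 2.48, 2.19 and 2.15 in rats 4, 6 and 7. The days overlapped, and their difference of 0.27 had p = 0.3 in an exact two-sided permutation test over the 6 arrays. For Nrp2 the same quantity was -2.54, -2.32 and -2.72 at day 1 and -3.10, -3.35 and -3.51 at day 3. All day 3 rats lay lower, by 0.80 on average, with exact permutation p = 0.1, the smallest that 3 against 3 arrays can give. Without Cd34 among the markers the differences were 0.24 for Nrp1 (exact permutation p = 0.3) and -0.82 for Nrp2 (exact permutation p = 0.1). Nrp2 itself, near background, differed by only -0.07, so this quantity mostly carries the higher marker levels of day 3.

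Cell types other than endothelium also moved between the days. Among fibroblast markers 10 of 12 rose and 0 fell (11 and 0 at an unadjusted p under 0.05), with a median of 2.27 and summed intensities of 59520 to 73360 at day 1 and 146300 to 160700 at day 3. The collagen genes Col1a1 (4.20, SE 0.24) and Col3a1 (3.24, SE 0.14) rose most. Pericyte and smooth muscle markers had a median of 0.64, with 2 of 7 that rose and 0 that fell (4 and 0 unadjusted), and refits without 1 rat gave 0 that rose (rat 2, 6 or 7), 1 (rat 1 or 4) or 6 (rat 3). Tagln, a smooth muscle actin-binding protein, rose by 0.97 (SE 0.22, adjusted p = 0.0228, 0.085 without rat 6). The pericyte marker Rgs5, counted among the 2, was above the limit on 0 day 1 arrays and was kept through day 3 alone. Its direction was thus largely set by the filter. It was at least 1.14-fold higher at day 3 (adjusted p = 0.0273, 0.0874 without rat 2). The part of these cell types in the changes of Vegfc, Vegfd and Nrp1 was not tested.

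Of 6 lymphatic endothelial markers 1 rose, or 16.7%, and 0 fell (1 and 0 unadjusted). This share is near the 13.5% of all kept genes that rose. The one that rose was Nr2f2, a transcription factor of veins and lymphatics, by 0.73 (SE 0.12, adjusted p = 0.00831). Prox1, the factor that specifies lymphatic endothelium, was near background on all arrays and differed by 0.04 (95% interval -0.20 to 0.29, adjusted p = 0.826). Lyve1, a hyaluronan receptor of lymphatics and of some macrophages, differed by 0.46 (95% interval -0.72 to 1.65, adjusted p = 0.589), with overlapping days.

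The proteases that process VEGF-C and VEGF-D gave 5 kept genes of 9 listed, of which 2 rose and 0 fell (3 and 1 unadjusted), with a median of 0.61. There was 1 that rose without rat 2, 6 or 7, and without rat 4 there were 2 that rose and 1 that fell. Plau, the urokinase that activates plasmin, rose by 0.75 (SE 0.16, adjusted p = 0.0203, 0.0786 without rat 6). Adamts14, a procollagen peptidase counted among the 2, was above the limit on 1 of 3 day 1 arrays and was kept through the day 3 arrays. The direction of Adamts14 was thus largely set by the filter. It differed by 0.61 (SE 0.12, adjusted p = 0.0137, 0.0559 without rat 2).

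Semaphorins and plexins, which share the neuropilins with VEGFs, had 7 kept genes of 14 listed. Of these 2 rose and 0 fell (3 and 0 unadjusted), with a median of 0.02, and 1 rose without rat 2, 6 or 7. Sema3b, a secreted semaphorin that binds neuropilins, rose by 0.64 (SE 0.11, adjusted p = 0.00916). The plexin Plxna3, counted among the 2, was above the limit on 1 of 3 day 1 arrays and was kept through the day 3 arrays. The direction of Plxna3 was thus largely set by the filter. It differed by 0.43 (SE 0.11, adjusted p = 0.0298, 0.115 without rat 6).

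The fall of Vegfa was accompanied by lower levels of many genes under oxygen control. Of 23 kept hypoxia targets (of 30 listed, Vegfa not among them) 11 fell, or 47.8%, and 1 rose, with a median of -0.66. The number that fell was 7 without rat 1 or rat 7, 6 without rat 2 and 18 without rat 3, where 2 rose. Ero1a, which oxidises folding secretory proteins, fell by 2.00 (SE 0.32, adjusted p = 0.00788), and Pdk1, which diverts pyruvate from mitochondria, fell by 1.36 (SE 0.17, adjusted p = 0.00356). The exception was P4ha2, a collagen prolyl hydroxylase, which rose by 1.92 (SE 0.10, adjusted p = 0.000383).

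Hif1a, the oxygen-regulated subunit of HIF-1, measured 11.19, 11.27 and 11.35 at day 1 and 10.31, 10.14 and 9.52 at day 3. No day 3 rat reached a day 1 rat, and the fall of 1.28 (SE 0.21, adjusted p = 0.00777) passed in each refit without 1 rat. Its dimerisation partner Arnt fell by 0.49 (SE 0.12, adjusted p = 0.0305, 0.096 without rat 6). Vhl, which marks the HIF subunit for destruction, fell by 0.58 (SE 0.15, adjusted p = 0.0372, 0.12 without rat 7), and Cited2, which competes with HIF for its coactivator, fell by 1.25 (SE 0.30, adjusted p = 0.0268, 0.0953 without rat 2). Epas1, the subunit of HIF-2, differed by -0.36 (adjusted p = 0.307) and the oxygen sensor Egln2 by -0.24 (adjusted p = 0.132). In all, 4 of 9 kept regulators fell and 0 rose (5 and 0 unadjusted), with a median of -0.36. The number that fell was 1 without rat 1, 2, 6 or 7 and 2 without rat 4. HIF activity is set largely at the protein level, which the arrays do not measure. Whether HIF or oxygen supply has a part in the fall of Vegfa was not tested.

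**Figure D3:**
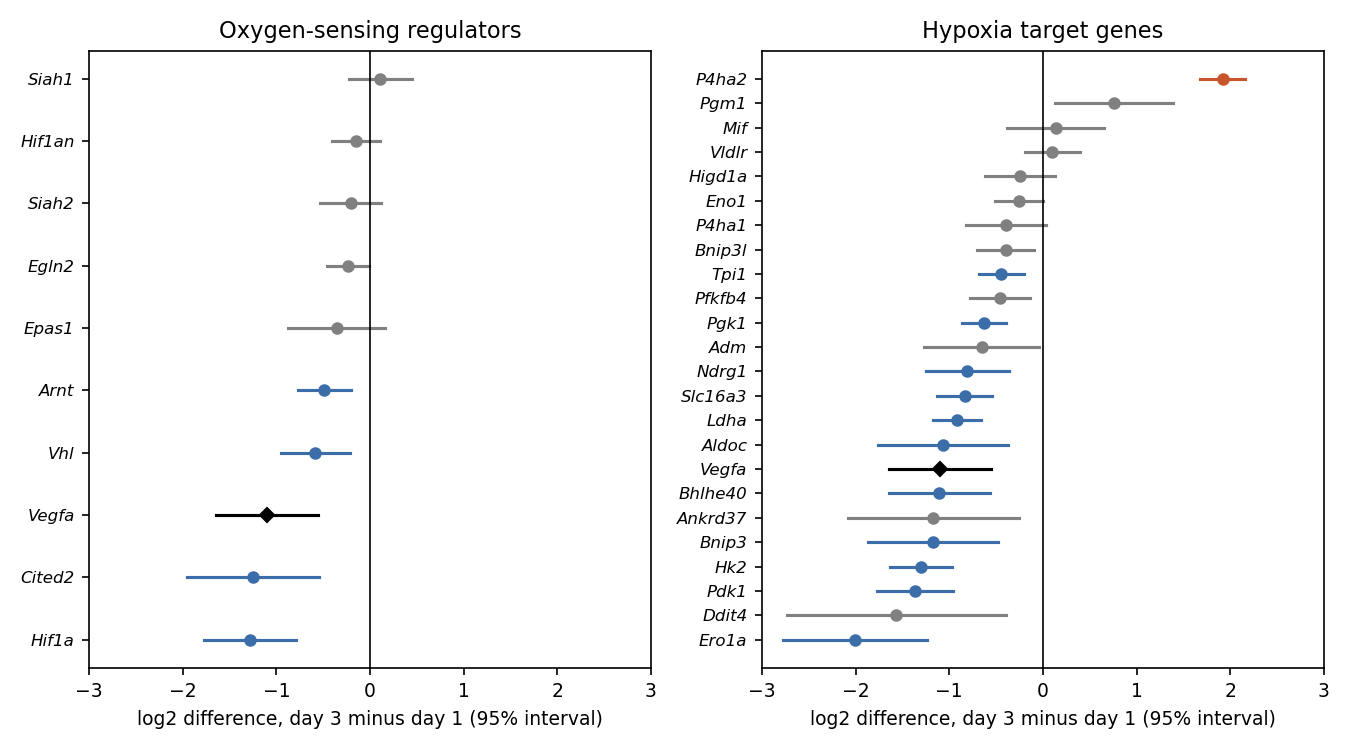
Log2 difference between day 3 and day 1 with its 95% interval (horizontal axes) for 9 oxygen-sensing regulators on the left and 23 hypoxia targets on the right, with Vegfa as a black diamond in both. Blue genes fell, orange rose and grey did not pass: Vegfa at -1.10 lies among the genes that fell, and P4ha2 at 1.92 alone among the targets rose.

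Neutrophil markers fell in the same comparison. Of 10 kept markers 8 fell and 0 rose (8 and 1 unadjusted), with a median of -1.96. The number that fell was 7 without rat 1, 2 or 6 and 6 without rat 7, and 1 rose without rat 1. Summed intensities were 37160 to 69090 at day 1 and 31100 to 35520 at day 3, but Lcn2, a secreted iron-trapping protein that many cells make under inflammation, gave 71.9% to 89.2% of the day 3 sums. It was 0.72 higher at day 3 and did not pass (SE 0.24, adjusted p = 0.0783). Without Lcn2, named after its values were seen, the sums were 20944 to 46410 at day 1 and 3835 to 8740 at day 3. Of the defining markers S100a9, Fpr1, Ltf and Ngp were too dim to be kept. Retnlg, a resistin-like granulocyte protein, fell by 3.72 (SE 0.78, adjusted p = 0.0191, 0.0719 without rat 2), and Pglyrp1, of neutrophil granules, fell by 2.57 (SE 0.35, adjusted p = 0.00461). Relative to its mean over the 6 arrays, the neutrophil list averaged -0.82, -0.60 and -1.31 in rats 4, 6 and 7. The hypoxia targets averaged -0.23, -0.15 and -0.53 there. Vegfa, too, was highest in rat 6 and lowest in rat 7. At day 1 the orders differed: Vegfa was lowest in rat 2, while the neutrophil list averaged 1.13, 0.94 and 0.66 and the hypoxia targets 0.45, 0.36 and 0.10 in rats 1, 2 and 3, both lowest in rat 3. The oxygen-sensing regulators averaged -0.17, -0.21 and -0.36 in rats 4, 6 and 7, with rat 4 highest. Whether neutrophil content has a part in the fall of Vegfa or of the hypoxia genes was not tested.

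**Figure D4:**
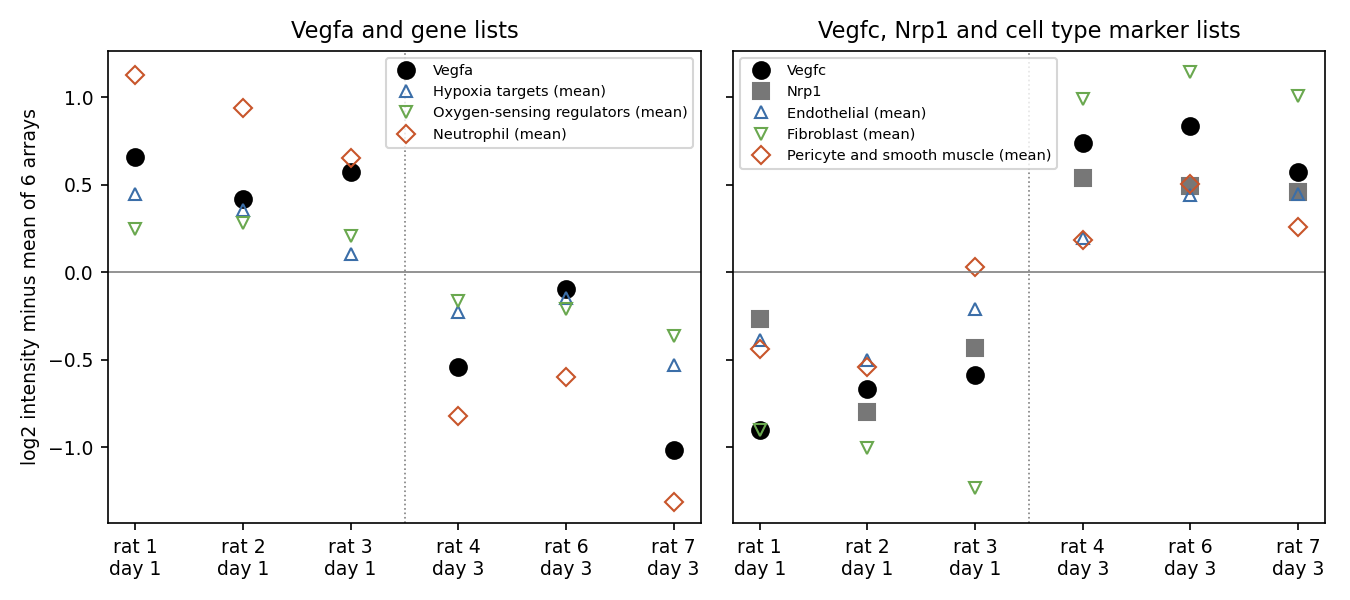
Log2 intensity minus the mean of the 6 arrays (vertical axis) in each rat, for Vegfa with 3 gene lists on the left and for Vegfc and Nrp1 with 3 cell type lists on the right; open symbols are means over the kept genes of a list. Vegfa and its 3 lists are above 0 at day 1 and below 0 at day 3, while Vegfc, Nrp1 and the fibroblast and endothelial lists are below 0 at day 1 and above 0 at day 3.

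Of the matrix proteins and proteases that bind or cut VEGF-A, 3 of 9 kept genes rose and 1 fell, with a median of 0.59. Thbs2, a thrombospondin that restrains vessel growth, rose by 2.60 (SE 0.27, adjusted p = 0.00211), and Sparc, a matrix protein that binds VEGF-A, rose by 2.10 (SE 0.11, adjusted p = 0.000319). Mmp9, a gelatinase that frees VEGF-A from matrix, fell by 1.32 (SE 0.33, adjusted p = 0.0328, 0.102 without rat 6). The number that fell was 0 when any rat other than rat 3 was left out, and 2 without rat 3. The number that rose was 2 without rat 2 or 6, 3 without rat 4 or 7 and 4 without rat 1 or 3. In the angiopoietin and TIE list 1 of 7 genes rose, or 14.3%, and 0 fell (2 and 0 unadjusted), with a median of 0.32. The share that rose is near the 13.5% of all kept genes. In this list 0 rose without rat 2, against 4 without rat 3. The gene that rose was Tie1, also an endothelial marker, a receptor-like kinase of endothelium, by 1.07 (SE 0.21, adjusted p = 0.0139, 0.0561 without rat 2). The angiopoietin receptor Tek differed by 0.32 (95% interval -0.23 to 0.88, adjusted p = 0.398).

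Downstream of the receptors, 5 of 35 kept signalling genes (of 53 listed) rose, or 14.3%, and 6 fell, or 17.1%, with a median of -0.06. These shares are near the 13.5% and 10.7% of all kept genes. The number that rose was 2 when rat 1, 6 or 7 was left out, 3 for rat 2 or 4 and 7 for rat 3. The number that fell was 1 when rat 1 or 6 was left out, 0 for rat 2, 10 for rat 3, 4 for rat 4 and 2 for rat 7. Shc2, an adaptor that binds Kdr, was above the limit on 2 of 3 day 1 arrays and rose by 0.89 (SE 0.11, adjusted p = 0.00391). Plcg1, the phospholipase that Kdr activates, rose by 0.95 (SE 0.22, adjusted p = 0.0256, 0.0901 without rat 2). Ptgs2, the inducible prostaglandin synthase, fell by 1.92 (SE 0.52, adjusted p = 0.0403, 0.111 without rat 1). Pla2g4a, which releases its substrate, fell by 1.03 (SE 0.28, adjusted p = 0.0396, 0.126 without rat 6).

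Genes that dampen VEGF signals had 4 of 14 that fell and 0 that rose (8 and 0 unadjusted), with a median of -0.34, and refits without 1 rat gave 1 that fell (rat 1, 4 or 6), 2 (rat 2 or 7) or 7 (rat 3). Dusp1, a phosphatase of MAP kinases, fell by 1.15 (SE 0.14, adjusted p = 0.0031). Socs3, a feedback inhibitor of cytokine receptors, fell by 1.25 (SE 0.32, adjusted p = 0.0364, 0.118 without rat 7). Both are also induced by many inflammatory signals.

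Among 20 kept genes known to be induced by VEGF or to mark tip cells 1 rose and 5 fell, with a median of 0.05. The number that fell was 2 without rat 1, 2, 6 or 7 and 3 without rat 4, and 4 rose and 6 fell without rat 3. Vcam1, an adhesion molecule of activated endothelium and stroma, rose by 1.23 (SE 0.21, adjusted p = 0.00927). Icam1, an adhesion molecule that leukocytes also carry, fell by 1.26 (SE 0.19, adjusted p = 0.00663). Cxcr4, a chemokine receptor of tip cells and leukocytes, fell by 1.45 (SE 0.33, adjusted p = 0.0235, 0.0818 without rat 2). The tip cell genes Esm1, Apln, Angpt2 and Dll4, named after their values were seen, differed by 0.17, 0.30, 0.29 and 0.44 and did not pass, with adjusted p from 0.166 to 0.495.

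The kept genes whose centred values over the 6 arrays were closest to a member's are given with their root mean square difference on the log2 scale. Closest to Vegfa were Bhlhe40 (0.117), which is also in the hypoxia target list, Ccr1l1 (0.127) and Klc4 (0.143). Vegfc was nearest to Sdc2 (0.0919), a cell surface proteoglycan, Serpinb9 (0.113) and Zfp57 (0.114). For Nrp1 they were Rad52 (0.0878), Cep72 (0.108) and Rrm2 (0.113), and for Pgf they were Chaf1b (0.128), Gng13 (0.133) and Tcf19 (0.141). Vegfb was closest to Mrps30 (0.0466), Ndufb11 (0.0726) and Ptgr1 (0.0746), and Nrp2 to Glycam1 (0.0171), Ddx42 (0.0193) and Pdcd1lg2 (0.0229). With 6 arrays in 2 groups such likeness follows mostly from the day difference and is a description of these arrays.

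**Figure D5:**
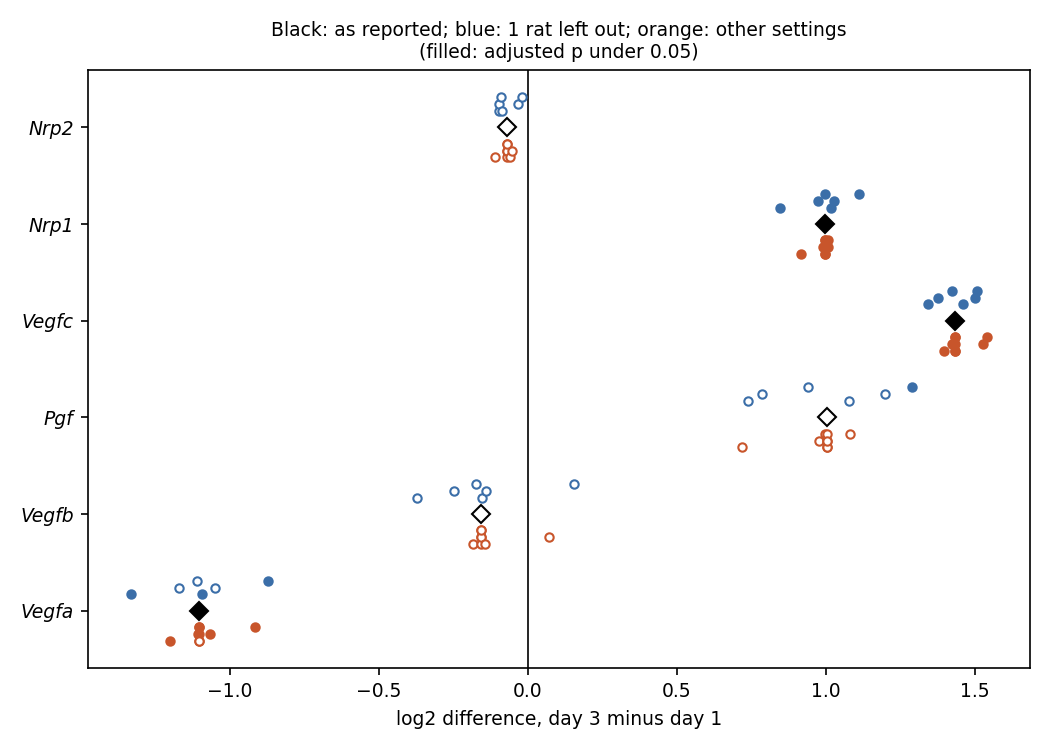
Log2 difference between day 3 and day 1 (horizontal axis) of the 6 tested VEGF genes as reported (black diamonds), with each rat left out in turn (blue) and under the other settings (orange); filled symbols have an adjusted p under 0.05 and the vertical spread within a gene is for legibility. Vegfc and Nrp1 are filled throughout, Vegfa is filled in part, Pgf is filled once and Vegfb crosses 0.

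Other cell types are given because whole implants were measured. Of 10 macrophage and monocyte markers 4 rose and 2 fell (median 0.36), among them the complement genes C1qa (1.69, SE 0.29) and C1qc (1.62, SE 0.24) upward and the receptors Cd14 (-1.97, SE 0.25) and Itgam (-1.66, SE 0.20) downward. Of 8 mast cell markers 7 fell and 0 rose (7 and 0 unadjusted; 4 fell without rat 2 or 7), led by Hdc (-3.73, SE 0.50) and Tpsab1 (-2.28, SE 0.24). Adipocyte markers had 2 of 10 that fell and 0 that rose (2 and 0 unadjusted), Scd (-3.67, SE 0.68) and Dgat2 (-2.53, SE 0.38), with a median of -1.38 that was 0.04 without rat 3, where 2 rose and 2 fell; 1 fell without rat 7. Skeletal muscle markers were bright in rats 2, 3 and 6 and dim in rats 1, 4 and 7 (summed intensities 859.6 to 15670 at day 1 and 790.6 to 13780 at day 3), and 0 of 6 passed in limma's test (0 unadjusted). Of 5 keratinocyte markers with a probe 3 were kept, and all 3 through the day 3 arrays: Krt10 and Tp63 were above the limit on 0 day 1 arrays and Pkp1 on 1, so that their direction was largely set by the filter. Pkp1 differed by 0.89 (SE 0.17), and Krt10 was at least 1.26-fold and Tp63, named after its values were seen, at least 1.21-fold higher at day 3. Of 7 T and NK cell markers and 4 erythroid markers 0 passed (0 unadjusted), with 4 T and NK markers that fell without rat 3.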

How the data were processed

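Biotin-labelled RNA was made from 100 ng of total RNA per rat with the Illumina TotalPrep kit, per the labels' protocols. It was hybridised to 1 Illumina rat BeadChip array per rat. The values used are probe intensities deposited by the authors, already quantile-normalised on a linear scale, as the values show (median 104.0, range 60.61 to 45354.1); the submitters' processing notes name limma. A second table of 6 signal and 6 detection columns, whose names match no sample label, was not used here.

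Intensities were corrected with normexp (offset 50), quantile-normalised again and log2-transformed. The background limit, an intensity of 100.7, is the 95th percentile of a log2-normal curve with its mode at 85.92 and the spread of the values below that mode. Of 22517 probes 12218 exceeded it on 3 or more arrays and were tested with limma 3.58.1 in R 4.3.3 (lmFit and eBayes, two-sided, day as the coefficient), with Benjamini-Hochberg adjustment over those probes and a threshold of 0.05. The fit was tested on simulated data. Of all probes 13787 carry 1 symbol and 8730 none. A gene is represented by its brightest kept probe. A fold against a day with no array above the limit is a bound, taken against that limit.

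Whole-array correlations were 0.988 to 0.992 among day 3 rats and 0.991 between rats 1 and 2. Rat 3 correlated with rats 1 and 2 at 0.957 and 0.964, against 0.922 to 0.965 between days. The number of arrays limits precision.

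The 9 genes and all gene lists were chosen with earlier results of these data known. Named genes are the members, the 2 kept genes of each list with the largest rise and fall past the threshold, the closest 3 genes to each member, and Vegfd, Hif1a, Epas1, Arnt, Vhl, Egln2, Tek, Tie1, Emcn, Prox1 and Lyve1. Esm1, Apln, Angpt2, Dll4, Cd34, Lcn2 and Tp63, and markers named as too dim or without a probe, are outside this rule and were chosen after their values were seen. Lists were described by counts, without a test of the list. Alternatives were the background correction and its offset, the normalisation, the filter, values below background at the limit, the variance model, the choice of probe, and each rat left out. The endothelial markers without Cd34 and the marker sums without the brightest gene were added after seeing the data. Promoter windows came from RefSeq on GRCr8 and held 5 of the 9 genes.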

Additional observations from a re-analysis of the deposited data

How the results depend on the processing

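No paired analysis was possible because the days share no rat numbers. Vegfc and Nrp1 kept their direction and their call in each of 15 alternative settings. Vegfa kept its direction in 15 and its call in 11. With each rat left out in turn, 2 to 3 VEGF genes rose and 0 to 1 fell, 10 to 27 pathway genes rose (16 with all rats) and 11 to 48 fell (31 with all rats). Over all probes 740 to 1971 rose (1523 with all rats) and 516 to 1831 fell (1206 with all rats). Nrp1 relative to the endothelial markers then differed by 0.14 to 0.39 and Nrp2 by -0.93 to -0.69. The pathway counts pool all pathway lists and show only how the calls depend on single rats. With all rats, 13.5% of all kept genes rose and 10.7% fell. Without moderation of the variance 673 probes rose, 377 fell and 0 VEGF genes fell (1 at an unadjusted p under 0.05), and array weights gave 1955 probes that fell; the cause was not tested. Vegfb was 0.07 with array weights. The stricter filter (99th percentile, 107.5, on all arrays) removed Vegfb and Nrp2 and gives them no value. Averaging probes is not counted among the 15 settings and could change nothing, since each member has 1 probe. The median of all kept genes stayed between -0.02 and 0.01 in every setting. Dim signal limits what can be said of Flt1, Nrp2 and Vegfb.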
